A study of Homo sapiens with 6 samples.

Results

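ATF4 and its partners in the integrated stress response and the unfolded protein response of the endoplasmic reticulum (ER) were followed in H1299 cells. The cells expressed either a control shRNA or an Ephexin1 shRNA. With the latter, the Ephexin1 mRNA remained at 68.9% of the control, a difference that did not pass the test. The paper checked the knockdown by western blot of Ephexin1 protein, which these mRNA values do not measure. The 10 genes were taken by name, but with earlier results of these data known. They were ATF4, ATF3, DDIT3, XBP1, HERPUD1, TRIB3, ASNS, CHAC1, SESN2 and ERN1. All 10 were among the 26255 genes listed, and all 10 were among the 16020 genes that passed the filter on low values and were tested. TRIB3 and CHAC1 fell in the Ephexin1 knockdown cells, to 43.1% and 38.4% of the control level. ASNS and XBP1 also fell, by less than 2-fold. HERPUD1, ERN1 and the 16 ER chaperones did not pass the test in either direction, as 2.15% of all genes did lower and 1.25% higher. With a term for replicate 2, described below, 1 chaperone passed in the lower direction and 4 in the higher. The shares of all genes were then 13.1% and 8.59%.

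The RNA-seq compared 3 libraries of NCI-H1299, a human line of lung cancer, that expressed a control shRNA (shControl) with 3 libraries of the same line that expressed an Ephexin1 shRNA (shEphexin1). The labels give the vector of both shRNAs as pSilencer2.1-U6-neo, where the methods give a hygromycin version, and both groups were grown in RPMI-1640 with serum, with no agent added to provoke ER stress or amino acid shortage. The methods describe stable knockdown clones, and the 3 shEphexin1 library names share 1 stem, so the libraries may be repeats of 1 clone. Nothing states that they came from separate cultures, and each p then measures only how far these libraries scatter, which may be technical.

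Cells answer several kinds of stress through a shared switch. The kinases EIF2AK1 to EIF2AK4 phosphorylate the translation factor eIF2, which lowers protein synthesis in general while raising the translation of ATF4 mRNA through its upstream open reading frames. ATF4 is a bZIP transcription factor that then induces genes of amino acid supply, redox balance and, under prolonged stress, cell death. In the ER itself, the sensor IRE1 (encoded by ERN1) splices XBP1 mRNA, and the spliced XBP1 factor together with ATF6 induces chaperones and degradation factors. Because ATF4 is set mainly by translation and XBP1 by splicing, gene-level mRNA values report neither ATF4 protein nor the spliced form of XBP1.

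The unit of every level below is FPKM (fragments mapped to a gene, scaled by transcript length and by the size of the library). GC content and the gene annotation can still affect it, so levels of different genes can be compared only roughly. Read counts are not part of the values, so the depth behind each is unknown. Fold changes are on the log2(FPKM + 0.1) scale, with the standard error (SE) and adjusted p of limma over all genes tested. A gene was called where its adjusted p was at most 0.025 and its fold at least 2, and "fell" is used where the adjusted p alone passed. In bulk RNA, a lower level in every cell and a smaller share of expressing cells cannot be told apart.

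NGEF, the gene that encodes Ephexin1, measured 13.3, 11.7 and 16.4 FPKM with the control shRNA and 9.81, 8.25 and 10.5 FPKM with the Ephexin1 shRNA, which is 68.9% of the control. All shEphexin1 libraries were lower, with an adjusted p from limma of 0.103, and of 0.00572 with a term for replicate 2, which is described next. Replicate 2 of both groups stood apart: across 15204 genes, the rank correlation (Spearman) of GC content and a library's deviation from its group mean was -0.687 and -0.758 in these libraries and 0.335 to 0.663 in the other 4. Results are therefore also given for replicates 1 and 3 alone and with a term for replicate 2. This term rests on these correlations, as the labels name no batch. Of 8 genes read as markers of a lung cancer line, CDH1 and NKX2-1 were listed at 0 in all 6 libraries. EPCAM was at most 0.220 FPKM, while VIM, which is not an epithelial marker, was at 1979 to 2670 FPKM. The keratins KRT18 and KRT8 averaged 88.9 and 6.78 FPKM with the control shRNA and 46.2 and 3.13 FPKM with the Ephexin1 shRNA, with log2 fold changes of -0.94 and -1.07 and adjusted p values of 0.0439 and 0.0304 from limma. The leukocyte markers PTPRC and CD3E were listed at 0 in all 6 libraries.

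Sequences before the transcription start sites were read from the RefSeq promoter table (GRCh38.p14), which held all 10 genes in 17 windows of 250 bases. Each window was searched on both strands for the C/EBP-ATF response element bound by ATF4 (CARE: TGATG, any base, then AA), the ER stress response elements ERSE (CCAAT and CCACG with 9 bases between them) and ERSE-II (ATTGG and CCACG with 1 base between them), the unfolded protein response element (UPRE: TGACG followed directly by TGG) and the cyclic AMP response element (CRE: TGACG followed directly by TCA). CARE was found in 4 of the 17 windows, ERSE in 1, ERSE-II in 1, UPRE in 0 and CRE in 0. Of all 35116 promoter windows of the same length, 3.14% held CARE, 0.074% ERSE, 0.0513% ERSE-II, 0.612% UPRE and 1.65% CRE. The 4 windows below belong to 2 ATF4 targets that fell, to XBP1, which also fell, and to HERPUD1, which did not pass the test. Capitals mark the matches, and each sequence runs 5′ to 3′ on the strand of its gene, ending at the base before the start site. The match is CARE in ASNS (chr7:97872409-97872658, minus strand, 68 to 61 bases before the start) and in CHAC1 (chr15:40953221-40953470, plus strand, 209 to 202 bases before the start, read on the opposite strand). It is ERSE in XBP1 (chr22:28800570-28800819, minus strand, 52 to 34 bases before the start). HERPUD1 (chr16:56931892-56932141, plus strand) has both a CARE on the opposite strand, 176 to 169 bases before the start, and an ERSE-II, 117 to 107 bases before it.
ASNS: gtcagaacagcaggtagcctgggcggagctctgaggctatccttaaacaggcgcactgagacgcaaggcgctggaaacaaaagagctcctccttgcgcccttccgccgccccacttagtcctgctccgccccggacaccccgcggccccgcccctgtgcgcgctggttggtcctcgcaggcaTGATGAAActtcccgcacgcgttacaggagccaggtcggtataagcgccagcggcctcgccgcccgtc
CHAC1: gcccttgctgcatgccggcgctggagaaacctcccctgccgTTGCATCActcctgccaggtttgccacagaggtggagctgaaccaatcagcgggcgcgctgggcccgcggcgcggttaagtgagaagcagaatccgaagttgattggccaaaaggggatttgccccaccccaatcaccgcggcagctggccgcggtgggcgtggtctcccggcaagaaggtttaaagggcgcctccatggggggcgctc
XBP1: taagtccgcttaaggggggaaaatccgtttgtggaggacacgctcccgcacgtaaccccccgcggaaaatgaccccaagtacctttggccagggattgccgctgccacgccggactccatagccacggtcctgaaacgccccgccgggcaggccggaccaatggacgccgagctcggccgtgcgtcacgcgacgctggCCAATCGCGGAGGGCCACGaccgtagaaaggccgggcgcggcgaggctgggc
HERPUD1: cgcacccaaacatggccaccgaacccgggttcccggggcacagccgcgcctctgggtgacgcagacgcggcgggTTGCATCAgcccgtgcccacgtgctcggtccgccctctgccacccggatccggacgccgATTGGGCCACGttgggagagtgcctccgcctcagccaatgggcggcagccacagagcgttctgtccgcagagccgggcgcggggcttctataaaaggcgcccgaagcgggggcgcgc
ATF3 has a CARE in the window of 1 of its 2 start sites, 191 to 184 bases before it. The windows of ATF4, DDIT3, TRIB3, SESN2 and ERN1 held none of these letters, which says nothing of sites elsewhere in those genes.

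Of the 10 genes, 2 were called lower (TRIB3 and CHAC1), against 0.999% of all genes tested, and 0 were called higher, against 0.893%. By the adjusted p alone, 4 were lower (TRIB3, CHAC1, ASNS and XBP1), against 2.15% of all genes, and 0 were higher, against 1.25%. For 6 genes (ATF4, DDIT3, XBP1, TRIB3, ASNS and CHAC1), every shEphexin1 library was below every shControl library, against 15.4% of all genes. ATF3 was the 1 gene with every shEphexin1 library above every shControl library, against 12.8% of all genes. For these 7 genes the two-sided exact permutation test gave p = 0.1, the smallest that 3 libraries against 3 allow. The median log2 fold change of the 10 genes was -0.49, that of all genes tested was -0.0093. With a term for replicate 2, the adjusted p of 7 genes passed in the lower direction (the same 4 with ATF4, DDIT3 and SESN2), against 13.1% of all genes, and that of 0 genes in the higher direction, against 8.59%.

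**Figure D1:**
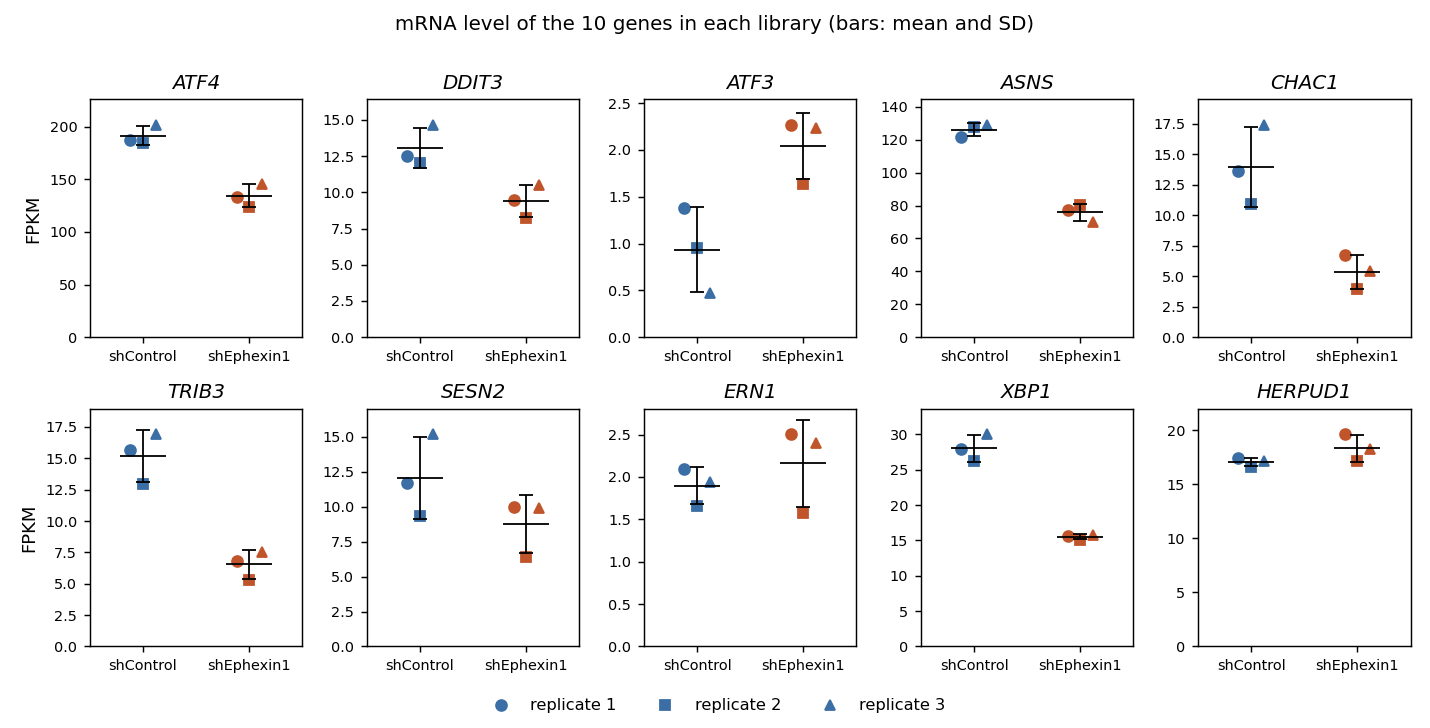
FPKM (linear axis from 0) of the 10 genes in each library, with shControl in blue, shEphexin1 in orange, 1 marker shape per replicate number, and bars for the mean and SD of 3 libraries. The 3 shEphexin1 points lie below all shControl points for ATF4, DDIT3, XBP1, TRIB3, ASNS and CHAC1 and above them for ATF3, and the groups overlap for HERPUD1, SESN2 and ERN1.

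ATF4 (GRCh37, chromosome 22, 39915700 to 39918688) had the highest level of the 10 genes and measured 187, 185 and 202 FPKM with the control shRNA and 134, 124 and 146 FPKM with the Ephexin1 shRNA. All shEphexin1 libraries were lower, by a log2 fold change of -0.51 (SE 0.101, adjusted p = 0.0312 from limma), just over the threshold. With replicates 1 and 3 alone it was -0.48 with an adjusted p of 0.0134, and in replicate 2 the difference was -0.58. GENCODE lists 4 pseudogenes named after ATF4, and how reads were shared with them is not given in the sources used here.

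DDIT3 (chromosome 12, 57910371 to 57915520) encodes CHOP, the bZIP factor that ATF4 induces and that is tied to cell death under prolonged ER stress. It measured 12.5, 12.0 and 14.7 FPKM with the control shRNA and 9.46, 8.25 and 10.5 FPKM with the Ephexin1 shRNA. The groups did not overlap, with a log2 fold change of -0.47 (SE 0.141, adjusted p = 0.0955 from limma), so the difference was not called. DDIT3 overlaps MARS on the opposite strand, whose log2 fold change was also -0.47, and whether the authors counted reads by strand is not given in the sources used here.

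ATF3 (chromosome 1, 212738676 to 212794119), a stress-induced bZIP factor that also represses targets of ATF4, had the lowest level of the 10 genes. It measured 1.38, 0.954 and 0.468 FPKM with the control shRNA and 2.27, 1.64 and 2.23 FPKM with the Ephexin1 shRNA, a direction opposite to that of ATF4 and DDIT3. The log2 fold change was 1.15 (SE 0.354, adjusted p = 0.103 from limma), which passed the fold but not the p. It was under 2-fold, at 0.68, with a pseudocount of 1 FPKM, and at 0.77 without shControl replicate 3. The shControl libraries differed among themselves by more than the shEphexin1 libraries did, and the difference was 2.04 in replicate 3 against 0.68 and 0.72 in replicates 1 and 2. ATF3 did not pass at 0.025 under any of the 18 alternative fits, in which its adjusted p ranged from 0.0297 to 0.307.

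Among the targets of ATF4, CHAC1, TRIB3, ASNS and SESN2 had lower mean levels in shEphexin1, as did DDIT3, while HERPUD1, described with the ER arm, did not. ATF3, which has a CARE before 1 of its start sites, was higher in every shEphexin1 library, as given above. CHAC1 (chromosome 15, 41245160 to 41248710), which breaks down glutathione, had the largest decrease of the 10 genes. It measured 13.6, 10.9 and 17.4 FPKM with the control shRNA and 6.71, 3.94 and 5.44 FPKM with the Ephexin1 shRNA, with a mean of 14.0 ± 3.27 against 5.36 ± 1.39 FPKM (SD over 3 libraries each). The lowest control library was therefore well above the highest knockdown library. The log2 fold change was -1.37 (SE 0.241, adjusted p = 0.0209 from limma), -1.33 with replicates 1 and 3 alone and -1.44 in replicate 2.

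TRIB3 (chromosome 20, 343479 to 378203) encodes a pseudokinase that is induced by ATF4 and CHOP and holds back ATF4 activity. It measured 15.7, 12.9 and 16.9 FPKM with the control shRNA and 6.83, 5.29 and 7.50 FPKM with the Ephexin1 shRNA. The mean fell from 15.2 ± 2.04 to 6.54 ± 1.14 FPKM (mean ± SD over 3 libraries each), which is a log2 difference of -1.21 (SE 0.173, adjusted p = 0.0112 from limma). The difference was nearly the same in the 3 pairs of libraries with the same replicate number, at -1.19, -1.27 and -1.16.

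ASNS (chromosome 7, 97480989 to 97501854), the asparagine synthetase and a classic target of ATF4 under amino acid shortage, was the second most highly expressed of the 10 genes. It measured 121, 128 and 129 FPKM with the control shRNA and 77.3, 80.1 and 70.0 FPKM with the Ephexin1 shRNA. The groups were far apart relative to their spread, with a log2 fold change of -0.73 (SE 0.0965, adjusted p = 0.00830 from limma), a decrease of less than 2-fold. GENCODE lists 5 pseudogenes named after ASNS.

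SESN2 (chromosome 1, 28586029 to 28609002), a stress-induced inhibitor of mTORC1 signaling, measured 11.7, 9.31 and 15.2 FPKM with the control shRNA and 10.0, 6.40 and 9.91 FPKM with the Ephexin1 shRNA. Its groups overlapped, and replicate 2 was the lowest library of both. The log2 fold change was -0.46 (95% interval -1.01 to 0.10, adjusted p = 0.307 from limma). With the term for replicate 2, the adjusted p was 0.0175, and with replicates 1 and 3 alone it was 0.0904.

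The ER arm of the pathway split. ERN1 (chromosome 17, 62116440 to 62208179), the IRE1 sensor, measured 2.09, 1.66 and 1.94 FPKM with the control shRNA and 2.50, 1.57 and 2.41 FPKM with the Ephexin1 shRNA, so the groups overlapped. The log2 fold change was 0.16 with a 95% interval from -0.36 to 0.67, and it was negative in replicate 2 (-0.076) and positive in replicates 1 and 3 (0.25 and 0.29).

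XBP1 (chromosome 22, 29190543 to 29196585), whose mRNA is the substrate of IRE1, measured 27.96, 26.2 and 30.0 FPKM with the control shRNA and 15.7, 15.1 and 15.8 FPKM with the Ephexin1 shRNA. The mean was 28.1 ± 1.91 against 15.5 ± 0.367 FPKM (SD over 3 libraries each), 55.3% of the control. XBP1 had the smallest adjusted p of the 10 genes, with a log2 fold change of -0.85 (SE 0.104, adjusted p = 0.00672 from limma). The differences in the 3 same-numbered pairs were -0.83, -0.79 and -0.92.

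HERPUD1 (chromosome 16, 56966054 to 56978776) encodes an ER membrane protein of ER-associated degradation that is induced by both the ER sensors and ATF4. It measured 17.4, 16.6 and 17.1 FPKM with the control shRNA and 19.6, 17.1 and 18.3 FPKM with the Ephexin1 shRNA, and the groups overlapped. The log2 fold change was 0.10 with a 95% interval from -0.15 to 0.35 (adjusted p = 0.625 from limma), an interval that holds no decrease of the size measured for ATF4.

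**Figure D2:**
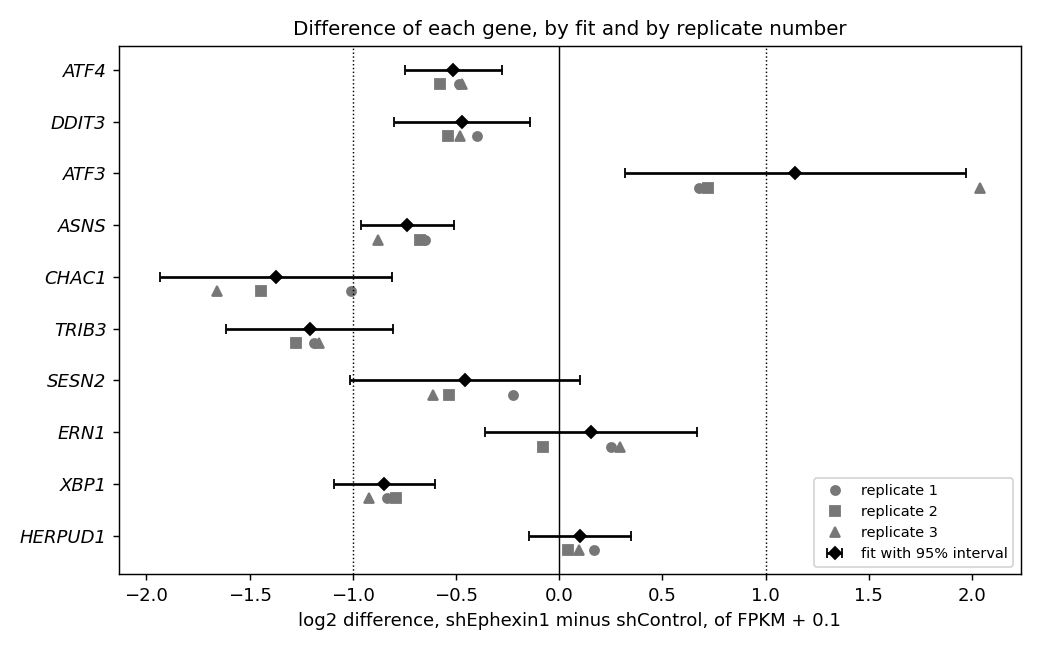
Log2 difference (shEphexin1 minus shControl, of FPKM + 0.1) of the 10 genes, with diamonds and bars for the fitted value and its 95% interval, gray markers for the 3 pairs of libraries with the same replicate number, and dotted lines at a 2-fold difference. TRIB3 (-1.21) and CHAC1 (-1.37) lie beyond the 2-fold line on the lower side, ATF3 (1.15) on the higher side with a wide interval, and the intervals of SESN2, ERN1 and HERPUD1 cross 0.

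In shControl, the mean levels ran from ATF4 (191 FPKM) and ASNS (126 FPKM) down through XBP1 (28.1 FPKM), HERPUD1 (17.0 FPKM), TRIB3 (15.2 FPKM), CHAC1 (14.0 FPKM), DDIT3 (13.1 FPKM) and SESN2 (12.1 FPKM) to ERN1 (1.90 FPKM) and ATF3 (0.934 FPKM). From HERPUD1 to SESN2, the libraries of each gene overlapped with those of the next in this order, and elsewhere they did not. In shEphexin1, all 3 values of XBP1 (15.1 to 15.8 FPKM) were below all 3 values of HERPUD1 (17.1 to 19.6 FPKM), where in shControl they had been above. TRIB3 and CHAC1 lay below every library of DDIT3 in shEphexin1 (at most 7.50 against at least 8.25 FPKM), where in shControl the 3 genes overlapped.

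ATF4 and XBP1 share chromosome 22 and ATF3 and SESN2 chromosome 1. The expressed genes around each (mean of at least 1 FPKM, within 10 Mb) were taken as a local background. The median log2 fold change of these neighbors was -0.39 around TRIB3 (55 genes), -0.37 around ERN1 (93 genes), -0.28 around DDIT3 (190 genes) and 0.27 around ASNS (147 genes), and lay between -0.054 and 0.088 around the other 6. Relative to its neighbors, the log2 fold change of TRIB3 was -0.82, that of DDIT3 -0.19, that of ASNS -1.01 and that of ERN1 0.53. On this scale TRIB3 was under 2-fold and ASNS just over it. CHAC1, XBP1 and ATF4 differed little on this scale (-1.39, -0.94 and -0.55). What moved the neighbors together was not tested.

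**Figure D3:**
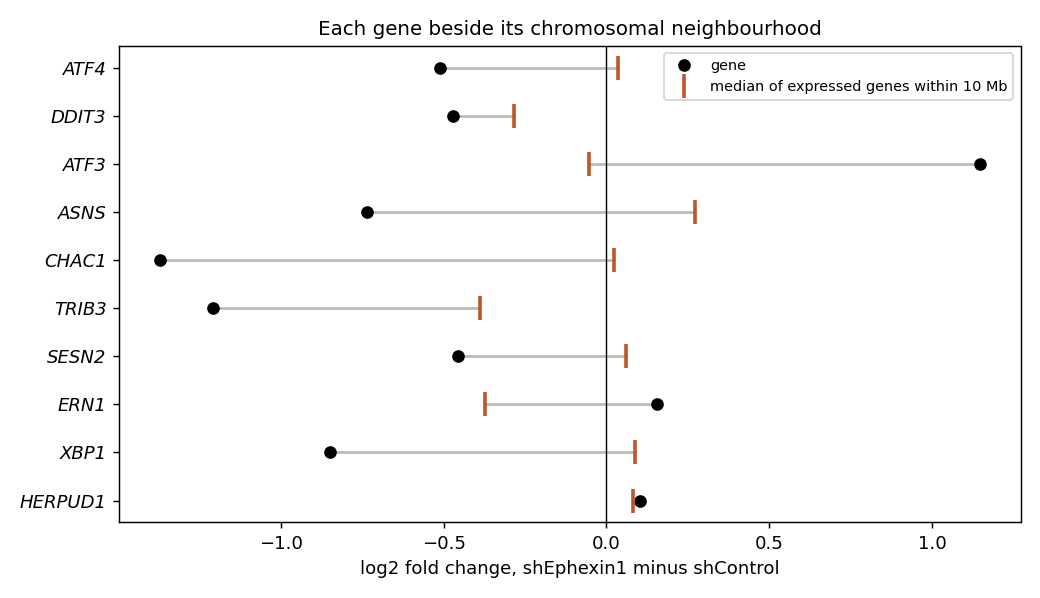
Log2 fold change of each gene (black points) and the median of the expressed genes within 10 Mb of it (orange bars). The bars of TRIB3, ERN1 and DDIT3 lie below 0 (-0.39, -0.37 and -0.28) and that of ASNS above 0 (0.27), so that TRIB3 and DDIT3 stand nearer to their neighbors, and ASNS farther from them, than to 0.

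The wider pathway was read from 9 lists with 128 listed genes, of which 124 were tested. FGF21 and TRIB2 were listed at 0 in all 6 libraries, and ERN2 and CREB3L3 were also below the filter. Over these 124 genes, 3 were called lower, against 0.999% of all genes, and 0 higher, against 0.893%. Of the 124, 79 had a negative fold change, and the median log2 fold change was -0.10. Among all genes tested, 51.1% were negative.

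The closest counterpart of ASNS was the list of ATF4 targets of amino acid supply, the enzymes of serine, glycine and proline synthesis and the amino acid transporters. Of its 18 genes, 16 were negative, against 51.1% of all genes, and the median log2 fold change was -0.30. Among them, 1 gene was called lower, against 0.999% of all genes, and 0 higher, against 0.893%. The groups were apart in the lower direction for 10 of the 18, against 15.4% of all genes, and in the higher direction for 0, against 12.8%. PSAT1, an enzyme of serine synthesis, fell from 129 ± 3.74 to 62.4 ± 5.41 FPKM (mean ± SD over 3 libraries each), which is a log2 difference of -1.05 (SE 0.101, adjusted p = 0.00283 from limma). The neighbors of PSAT1 had a median of -0.32, and relative to them its log2 fold change was -0.73, under 2-fold. PYCR1, of proline synthesis, and PHGDH, the first enzyme of serine synthesis, had log2 fold changes of -0.89 and -0.72 with adjusted p values of 0.0883 and 0.0905. Their neighbors had medians of -0.29 and -0.071. With the term for replicate 2, the adjusted p of 9 of the 18 genes, PYCR1 and PHGDH among them, passed in the lower direction, against 13.1% of all genes, and that of 0 in the higher, against 8.59%.

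The 12 cytosolic tRNA synthetases on the list, which charge tRNAs with amino acids, were all negative, with a median of -0.17 and 0 genes called. NARS, TARS and MARS had log2 fold changes of -0.56, -0.50 and -0.47, with adjusted p values of 0.0360, 0.0288 and 0.0936. NARS and TARS lie among neighbors whose medians were -0.43 and -0.45. With the term for replicate 2, 5 of the 12, these 3 among them, passed in the lower direction, against 13.1% of all genes.

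Among 18 other targets of ATF4 and CHOP, 12 were negative, against 51.1% of all genes, and the median was -0.17. Of these, 2 were called lower, against 0.999% of all genes, and 0 higher, against 0.893%. The groups were apart in the lower direction for 7 and in the higher for 3, against 15.4% and 12.8% of all genes. DDIT4, an inhibitor of mTORC1 like SESN2, fell from 43.4 ± 8.74 to 18.4 ± 4.72 FPKM (mean ± SD over 3 libraries each), which is a log2 difference of -1.25 (SE 0.231, adjusted p = 0.0245 from limma). NFIL3, a bZIP repressor, fell from 4.22 ± 0.459 to 1.95 ± 0.0802 FPKM (mean ± SD over 3 libraries each), which is a log2 difference of -1.07 (SE 0.149, adjusted p = 0.0103 from limma). The neighbors of DDIT4 and NFIL3 had medians of -0.24 and -0.23. Relative to them, the log2 fold changes were -1.01 for DDIT4 and -0.84 for NFIL3. JDP2, another bZIP repressor, was at -1.06 with an adjusted p of 0.0269, and of 0.00406 with the term for replicate 2, where it was called lower. With that term, 7 genes of the list passed in the lower direction, against 13.1% of all genes, and 1 in the higher, against 8.59%. The list was not uniform. The gene that passed in the higher direction was TNFRSF10B, at 0.41. Its adjusted p from limma was 0.0793 without the term and 0.00403 with it. GDF15, a secreted stress cytokine, was at 0.69 with an adjusted p from limma of 0.127, and of 0.0501 with the term, so it did not pass.

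Upstream of ATF4, of 16 genes for eIF2 kinases, eIF2, eIF2B and the eIF2 phosphatase, 10 were negative, 0 were called, and the median was -0.11. The groups were apart in the lower direction for 5 and in the higher for 2, against 15.4% and 12.8% of all genes, and with the term for replicate 2 the adjusted p passed for 3 and 0, against 13.1% and 8.59%. EIF2S2, the beta subunit of eIF2, fell from 110 ± 4.13 to 73.2 ± 6.13 FPKM (mean ± SD over 3 libraries each), which is a log2 difference of -0.59 (SE 0.101, adjusted p = 0.0194 from limma). The neighbors of EIF2S2 had a median of -0.21, and relative to them its log2 fold change was -0.38. EIF2AK1, the heme-regulated kinase, was at -0.46 with an adjusted p of 0.0388, where its neighbors had a median of -0.51. EIF2AK3, the ER kinase PERK, was at 0.31 with an adjusted p of 0.198.

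The ER lists had medians above 0, from 0.050 for degradation and translocation to 0.22 for the sensors. Of 10 ER stress sensors and their proteases, 7 were positive, the median log2 fold change was 0.22, and the groups were apart in the higher direction for 4, against 12.8% of all genes, and in the lower for 0, against 15.4%. CREB3L1, an ER-anchored bZIP factor cut by the same proteases as ATF6, averaged 3.13 ± 0.603 FPKM in control and 6.54 ± 1.00 FPKM in knockdown cells (mean ± SD over 3 libraries each), which is a log2 difference of 1.05 with an adjusted p of 0.0257 from limma. CREB3L2 and ATF6 were at 0.51 and 0.32 with adjusted p values of 0.0553 and 0.182, and the neighbors of CREB3L2 had a median of 0.38. With the term for replicate 2, the adjusted p from limma was 0.000438 for CREB3L1, which was then called higher, 0.00438 for CREB3L2 and 0.00851 for ATF6. These were the 3 sensors that passed in the higher direction, against 8.59% of all genes, and 0 passed in the lower.

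For the 16 ER chaperones, the median was 0.12, with 7 negative and 9 positive genes and 0 called. The groups were apart in the lower direction for 2 and in the higher for 3, against 15.4% and 12.8% of all genes. DNAJB9, a co-chaperone and a well-known target of spliced XBP1, measured 6.62, 7.12 and 6.41 FPKM with the control shRNA and 10.8, 15.5 and 10.3 FPKM with the Ephexin1 shRNA. All shEphexin1 libraries of DNAJB9 were higher, with a log2 fold change of 0.83 (SE 0.176, adjusted p = 0.0362 from limma), while those of XBP1 itself were lower. The neighbors of DNAJB9 had a median of 0.34, and relative to them its log2 fold change was 0.49. SIL1 was at 0.63 and HSPA5, the main ER chaperone BiP, at 0.34, with adjusted p values of 0.173 and 0.101. With the term for replicate 2, 1 chaperone passed in the lower direction, against 13.1% of all genes, and 4 in the higher, DNAJB9, SIL1 and HSPA5 among them, against 8.59%.

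The 16 genes of ER-associated degradation and translocation, the list nearest to HERPUD1, had a median of 0.050, with 8 negative and 8 positive genes and 0 called. Here too, the groups were apart in the lower direction for 2 and in the higher for 3, against 15.4% and 12.8% of all genes. SYVN1, the ubiquitin ligase of this pathway, was at 0.73, the translocon subunit SEC61B at -0.47 and the coat protein SEC24D at 0.35, with adjusted p values of 0.0864, 0.108 and 0.122. With the term for replicate 2, 2 genes of this list passed in the lower and 3 in the higher direction, these 3 genes among them, against 13.1% and 8.59% of all genes. The 15 bZIP partners had a median of 0.0063 and 0 genes called, with FOSL2 at 0.54, MAFF at 0.53 and JUNB at 0.48. With that term, 1 partner passed in the lower and 2 in the higher direction, FOSL2 and JUNB, against 13.1% and 8.59% of all genes. Of the 7 tested paralogs of the 10 genes, 0 were called, 0 passed with that term, and the median was -0.11. TRIB1 was at -0.37, CHAC2 at -0.28 and SESN1 at 0.18, all with adjusted p values over 0.2.

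**Figure D4:**
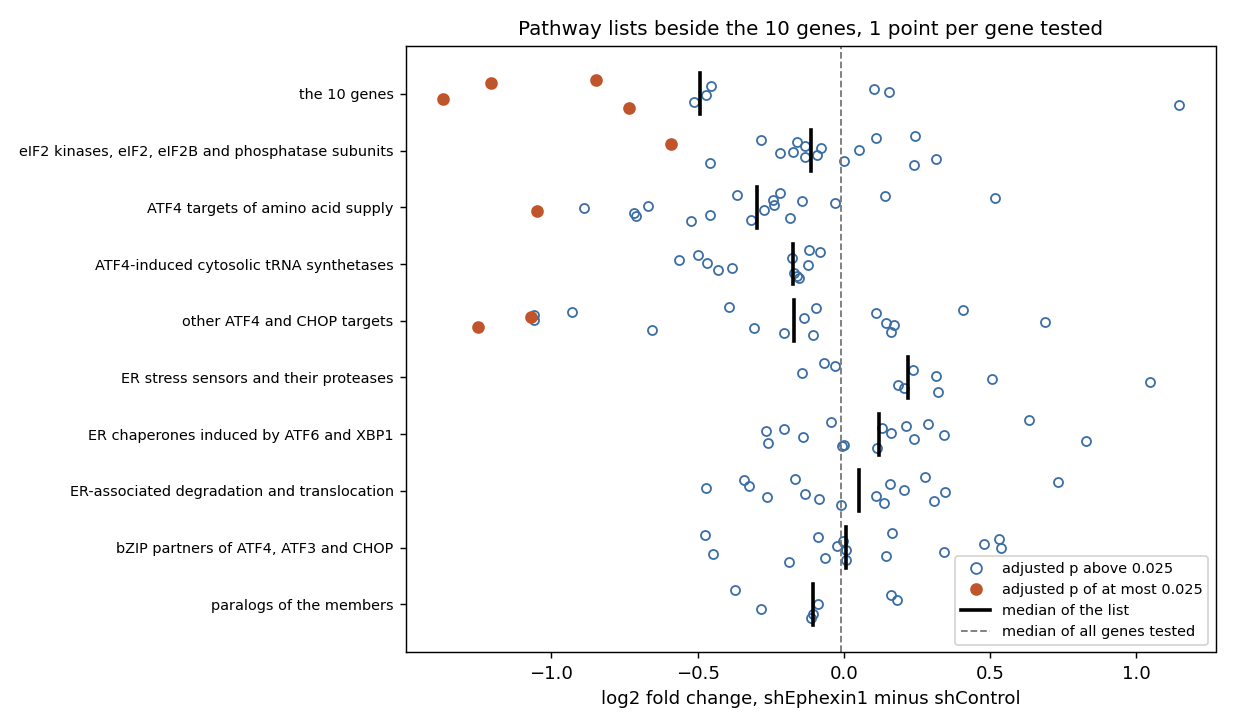
Log2 fold change (shEphexin1 minus shControl) of the genes tested in each list, 1 point per gene, filled where the adjusted p was at most 0.025, with black bars for list medians and a dashed line for the median of all genes tested. The medians of the 10 genes (-0.49) and the amino acid supply list (-0.30) lie to the left of the dashed line (-0.0093), and those of the ER sensors (0.22) and ER chaperones (0.12) to the right.

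The calls depended on single libraries, while the directions did not. With 1 library left out at a time, the log2 fold change of TRIB3 stayed between -1.32 and -1.06 and that of CHAC1 between -1.55 and -1.17. Neither gene was called, and 0 of the 10 passed by the adjusted p alone, when replicate 1 or replicate 3 of either group was left out. Without shControl replicate 2 or without shEphexin1 replicate 2, TRIB3 alone was called.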

How the data were processed

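Per the methods and the submitters' processing notes, the authors mapped the reads of 6 stranded total RNA libraries to GRCh37/hg19 with TopHat2 2.0.13 and derived FPKM for each gene with Cuffdiff (Cufflinks 2.2.1), under geometric library normalization. The gene annotation behind the deposited FPKM is not given in the sources used here. The 6 value columns were assigned by their library names, and 0 columns were left out.

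A gene was tested where 3 or more of the 6 libraries reached 0.1 FPKM (16020 of 26255). Values were log2-transformed after adding 0.1 FPKM and fitted in limma 3.58.1 by lmFit, followed by eBayes with its trend option (R 4.3.3), without a block and with Benjamini-Hochberg adjustment over all genes tested. Python 3.11.15 was used for annotation. Gene names were looked up in GENCODE release 44 (lifted to GRCh37) (23759 matched, 1337 of them through an older symbol). The script was tested on simulated data. The alternatives were 18 other fits (pseudocount, filter, scaling, moderation, replicate block, replicate 2, GC content and transcript length, each library left out) and 2 other call rules.

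The members and lists were chosen with earlier results of these data known, and they have no set test. Named genes are the 10 members, NGEF, the markers, and in each list the genes called, filled up to 3 by the largest absolute fold change. GDF15 and TNFRSF10B were named outside this rule, after their values were seen. A gene of the marker list is not reported here.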

Additional observations from a re-analysis of the deposited data

How the results depend on the processing

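Under all 18 alternative fits, each of the 10 genes kept its direction, ERN1 and HERPUD1 included. The number of the 10 genes called was 2 in the report, 0 without a filter, 1 with eBayes without trend (CHAC1 was lost), 4 with no limit on the fold, and between 0 and 1 with each library left out. Genes called in the pathway lists (3 in the report) were 5 with median centring, 5 with the replicate block, 5 with the term for replicate 2, 5 with the adjusted p limit at 0.05, and between 0 and 4 with each library left out (0 without shControl replicate 1, shEphexin1 replicate 1 or its replicate 3, and 1 without shControl replicate 2 or its replicate 3). Over all genes, 143 were called higher and 160 lower. These numbers were 73 and 66 with a pseudocount of 1 FPKM, 57 higher without a filter, 105 lower with a filter of 1 FPKM, 309 and 247 with the replicate block, 312 and 252 with the term for replicate 2, 234 higher with replicates 1 and 3 alone, 291 higher with the GC and length correction, 239 higher with that limit at 0.05, 345 lower with no limit on the fold, and between 23 and 159 higher and 37 and 157 lower with each library left out. The groups were apart for 7 of the 10 genes in the report, for 8 with median centring, 8 with quantile normalization and 9 with the GC and length correction.

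The deviations of same-numbered libraries from their group means correlated at 0.0914, 0.430 and 0.328 across genes for replicates 1, 2 and 3. Each library correlated best with its own number, but the first value is low and the labels name no shared batch. The numbers were therefore not taken as pairs in the main fit. The term for replicate 2 does treat the libraries of that number as alike, on their GC correlations and without a label for it. With the replicate block, the adjusted p of ATF4, DDIT3 and SESN2 was 0.000537, 0.00335 and 0.0131. Read counts were not used here, so neither counting error nor depth limits could be given, and ATF3 and ERN1 are at the lowest levels of the 10 genes.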
